A study of Mus musculus with 5 samples.

Results

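Synaptic vesicles release their content when a calcium signal makes them fuse with the plasma membrane, and neuroendocrine cells use much of the same machinery for secretion. The 9 genes described here are Syt1, Snap25, Syp, Stx1a, Vamp2, Cplx2, Rab3a, Sv2a and Syn1. They were taken by gene symbol from the deposited read count table, in which each symbol had 1 row, so that they were 9 of 54532 genes. All 9 passed the filter on low counts, as did 17906 genes in all. The counts came from 5 mouse lung tumours of small cell lung cancer (SCLC), a cancer of neuroendocrine cells, taken at necropsy and frozen. All tumours had the genotype RPP, which the labels do not expand, and came from a genetically engineered model, with no promoter, Cre or age stated in the labels. Of these, 2 received vehicle and 3 received LSN. The series calls the agent an Aurora A kinase inhibitor, without dose or duration; Aurora A acts in mitosis. The series describes the material as primary cells, and the sample labels describe it as lung tumour.

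In the coordinates of the deposited table (mm10), the 3 SNARE genes were Snap25 (ENSMUSG00000027273, chr2:136713453-136782428), Stx1a (ENSMUSG00000007207, chr5:135023482-135051100) and Vamp2 (ENSMUSG00000020894, chr11:69088490-69092384). Syt1 (ENSMUSG00000035864) lay at chr10:108497650-109010982, Cplx2 (ENSMUSG00000025867) at chr13:54371349-54383917 and Rab3a (ENSMUSG00000031840) at chr8:70754679-70758677. The vesicle protein genes were Syp (ENSMUSG00000031144, chrX:7638471-7653256), Sv2a (ENSMUSG00000038486, chr3:96181151-96195521) and Syn1 (ENSMUSG00000037217, chrX:20860511-20921004). The deposited length of each gene was that of all its exons together, untranslated regions included.

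Fusion is driven by SNARE proteins, which sit on the vesicle (VAMP2) and on the plasma membrane (syntaxin 1A and SNAP-25) and zip together into a bundle. Synaptotagmin 1 senses calcium, complexin 2 binds the assembled bundle, and RAB3A, a small GTPase, marks vesicles before docking. Synaptophysin and SV2A span the vesicle membrane, and synapsin I tethers vesicles to one another. Pathologists stain for synaptophysin to recognise neuroendocrine tumours, SCLC among them.

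Libraries held 17439049 to 19766604 counts. Pearson correlations of log2(CPM + 1) across tested genes, which are not independent replicates, lay between 0.868 and 0.950 for pairs of tumours, and vehicle replicate 2 and LSN replicate 1 were nearest to each other. CPM are counts relative to library size, scaled here by TMM, a correction for library composition. Chga, which encodes the granule protein chromogranin A, a neuroendocrine marker, was present in every tumour, at 1475 and 172 CPM in vehicle replicates 1 and 2 and at 1241, 1360 and 492 CPM in LSN replicates 1, 2 and 3. Vehicle replicate 2 was lowest for this marker, but neuroendocrine markers did not all rank the tumours alike. Uchl1, another of them, was highest in vehicle replicate 2, at 552 CPM, and lowest in LSN replicate 3, at 343 CPM.

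Across the 5 tumours, Cplx2 was the most abundant of the 9 genes and Stx1a the least. Levels between genes are given in TPM, which divides counts by gene length before scaling to library size. Cplx2 stood at 665 ± 201 TPM (SD, n = 5), a higher mean than 99.3% of the tested genes. Vamp2 followed at 219 ± 53.4 TPM (SD, n = 5) and Syt1 at 183 ± 123 TPM (SD, n = 5). Cplx2 exceeded Vamp2 in 5 of 5 tumours, while Vamp2 exceeded Syt1 in 3 of 5, so that the order of the latter pair was within their spread. Rab3a (87.5 ± 23.3 TPM), Syp (75.6 ± 25.3 TPM), Snap25 (66.1 ± 31.2 TPM) and Syn1 (63.3 ± 21.9 TPM) had neighbouring levels (SD, n = 5). Rab3a exceeded Syp and Syp exceeded Snap25 in 3 of 5 tumours each, and Snap25 exceeded Syn1 in 2 of 5. Adjacent genes were thus not separated, but Rab3a exceeded Syn1 in every tumour. Sv2a, at 46.7 ± 14.1 TPM (SD, n = 5), was below Syn1 in 5 of 5 tumours. Stx1a, at 30.9 ± 12.9 TPM (SD, n = 5), was below Sv2a in 4 of 5.

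The comparison of LSN with vehicle asked how gene expression differed in tumours exposed to the inhibitor. None of the 9 genes passed the test, although each had a log2 fold change above 0, the sign for higher levels with LSN. By edgeR's quasi-likelihood test, 0 of the 9 genes passed a Benjamini-Hochberg adjusted p of 0.05, as did 0 of 17906 genes (0%). At an unadjusted p under 0.05 by edgeR there were 0 of the 9, against 4.27% of tested genes. DESeq2 called 0 of the 9 and 0.539% of its 18547 genes at an adjusted p of 0.05. Of the 9, Syt1 alone had an unadjusted p under 0.05 by DESeq2 (0.0277), as did 1218 genes in all. A log2 fold change above 0 was seen for 9 of 9 genes, against 53.2% of tested genes, and their median was 0.48, against 0.03 over all tested genes. In TMM-scaled CPM, every LSN tumour lay above both vehicle tumours for 3 of the 9, Cplx2, Syp and Sv2a, where 8.48% of tested genes did so. For Sv2a this did not hold in TPM. Every LSN tumour lay below both for 0 of the 9, against 10.4% of tested genes. The 9 genes are not independent of one another, since all were measured in the same 5 tumours. In pieces of tumour, fewer cells of a type and less RNA per cell cannot be told apart.

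**Figure D1:**
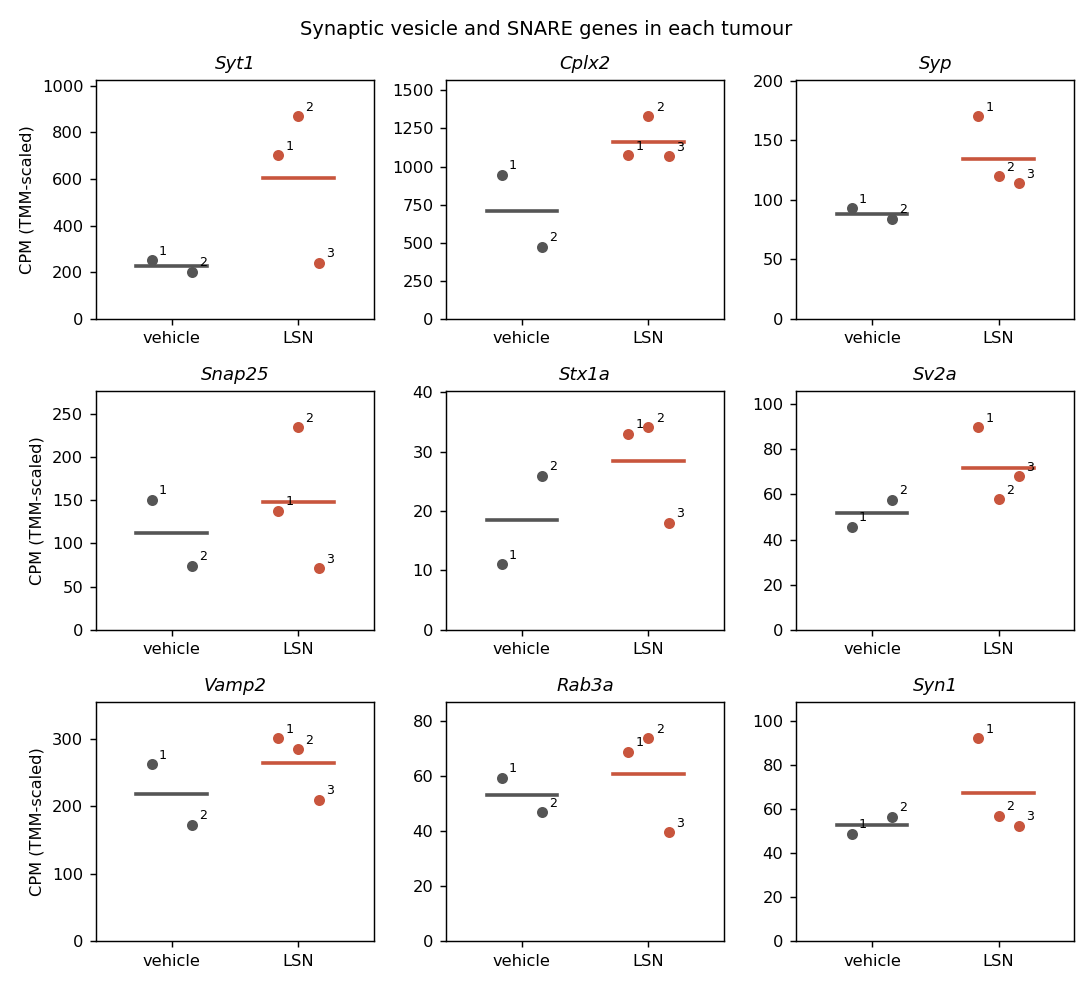
Level of each of the 9 genes (y axis, TMM-scaled CPM from 0) in the 2 vehicle and 3 LSN tumours (x axis); points are tumours, numbered by replicate, and lines are group means. All LSN points lie above both vehicle points for Cplx2, Syp and Sv2a, and LSN replicate 3 lies among the vehicle points for Syt1, Stx1a, Vamp2 and Syn1.

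Syt1, the calcium sensor, had the largest log2 fold change of the 9 and split the LSN group. It stood at 251 and 202 CPM in vehicle replicates 1 and 2 and at 702, 870 and 241 CPM in LSN replicates 1, 2 and 3. LSN replicates 1 and 2 were thus far above both vehicle tumours, and LSN replicate 3 lay between them. The group means were 604 ± 326 CPM (SD, n = 3) and 226 ± 34.4 CPM (SD, n = 2), and the log2 fold change was 1.42 ± 0.58 (SE), and edgeR gave an adjusted p of 0.9996 (0.0534 unadjusted). DESeq2 gave Syt1 an adjusted p of 0.634 (0.0277 unadjusted). The log2 fold change by edgeR ranged from 1.06 without LSN replicate 2 to 1.79 without LSN replicate 3.

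Synaptotagmins form a large family, and Syt7 or Syt11, not Syt1, led it in each of the 5 tumours. Syt1 held 14.5% and 11.6% of the family's TPM over its 17 genes with vehicle, and 27.1%, 27.8% and 15.2% with LSN, replicates in order. Syt7, a calcium sensor of slower release, held between 15.1% and 30.5%, with its highest share in LSN replicate 2. Syt11, a family member that lacks calcium binding, held 37.6% in vehicle replicate 2 and 27.5% in LSN replicate 1, just above Syt1 there, but 9.28% in LSN replicate 2. The leading synaptotagmin thus differed between tumours of one group. By edgeR, 0 of the 15 tested synaptotagmins passed the adjusted threshold and 0 had an unadjusted p under 0.05, and their median log2 fold change was 0.46, with 11 above 0.

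Cplx2, whose product clamps and then promotes fusion, was higher in all 3 LSN tumours. It stood at 946 and 473 CPM in vehicle replicates 1 and 2 and at 1076, 1331 and 1067 CPM in LSN replicates 1, 2 and 3. The vehicle tumours differed by 2.0-fold between themselves, more than the 1.25-fold between the highest and lowest LSN tumour, and vehicle replicate 1 was close to LSN replicates 1 and 3. This gave a log2 fold change of 0.71 ± 0.36 (SE), and edgeR gave an adjusted p of 0.9996 (0.101 unadjusted). It was 0.29 without vehicle replicate 2 and 1.30 without vehicle replicate 1. Cplx2 made up 98.3%, 99.6% and 97.3% of the complexin TPM in vehicle replicate 1 and LSN replicates 2 and 3. In vehicle replicate 2 and LSN replicate 1 its share was 76.8% and 88.6%, with Cplx1 holding 23.2% and 10.5%.

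The plasma membrane SNARE genes overlapped between the groups. Snap25 was at 150 and 74.3 CPM in vehicle replicates 1 and 2 and at 138, 235 and 71.1 CPM in LSN replicates 1, 2 and 3. The groups overlapped, with vehicle replicate 2 and LSN replicate 3 at nearly the same low level. The log2 fold change of 0.40 ± 0.58 (SE; adjusted p of 0.9996 by edgeR) changed sign without LSN replicate 2, to -0.11, and without vehicle replicate 2, to -0.02. Leaving out vehicle replicate 1 gave 1.0, and leaving out LSN replicate 3 gave 0.72. Stx1a had the lowest counts of the 9, 206 and 464 with vehicle and 598, 636 and 340 with LSN. The 95% Poisson interval of 206 counts runs from 179 to 236, which covers counting error only. In CPM these were 11.1 and 25.9 with vehicle and 33.02, 34.1 and 18 with LSN, so that LSN replicate 3 fell between the vehicle tumours. For Stx1a the log2 fold change was 0.62 ± 0.52 (SE; adjusted p of 0.9996 by edgeR), 0.14 without vehicle replicate 1 and 1.36 without vehicle replicate 2.

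Neither gene held most of its family's transcripts in any tumour. Snap25 held 37.9% and 40.5% of the TPM of the 4 SNAP genes in vehicle replicate 1 and LSN replicate 2, and 17.3% to 25.8% in the other tumours. Snap47 led the SNAP genes in those other tumours, at 33.8% in vehicle replicate 2, 48.2% in LSN replicate 1 and 48.1% in LSN replicate 3. Snap23, the widely expressed relative of Snap25, held 8.35% to 16.9%. Among 5 plasma membrane syntaxin genes, Stx1a held 8.76% in vehicle replicate 1 and 16.2% to 23.9% in the rest. Stx4a, a syntaxin of non-neuronal secretion, led at 42.1% and 24.4% with vehicle and at 37.5% and 28.1% in LSN replicates 2 and 3, but held 13.6% in LSN replicate 1, less than Stx1a there.

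Vamp2, the vesicle SNARE, was at 263 and 173 CPM in vehicle replicates 1 and 2 and at 301, 285 and 210 CPM in LSN replicates 1, 2 and 3. The groups overlapped through LSN replicate 3, and the spread over all 5 tumours, 1.74-fold, was the smallest of the 9 genes. This corresponded to a log2 fold change of 0.29 ± 0.29 (SE; adjusted p of 0.9996 by edgeR), 0.02 without vehicle replicate 2 and 0.63 without vehicle replicate 1. Leaving out LSN replicate 1 gave 0.18. Vamp2 lies on chromosome 11, where the median log2 fold change of the 1422 tested genes was 0.34. Vamp2 was the leading vesicle SNARE in every tumour, with 34.7% to 50.3% of the TPM of 7 Vamp genes. Vamp3, which serves endosomal recycling, held 17.3% to 31.7%, and Vamp8, which serves secretion in epithelial and blood cells, 8.06% to 17.9%.

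Rab3a was at 59.4 and 46.7 CPM in vehicle replicates 1 and 2 and at 68.7, 73.6 and 39.4 CPM in LSN replicates 1, 2 and 3. LSN replicate 3 was the lowest tumour and LSN replicate 2 the highest, so that the LSN group enclosed the vehicle group. Its log2 fold change of 0.19 ± 0.35 (SE; adjusted p of 0.9996 by edgeR) was the smallest of the 9. Without LSN replicate 1, LSN replicate 2 or vehicle replicate 2 it was 0.09, 0.03 and 0.03, and without vehicle replicate 1 or LSN replicate 3 it was 0.39 and 0.42. Of the 4 Rab3 genes, Rab3a held 21.4% to 45.1% of the TPM. Rab3b, a paralog, held 10.4% in vehicle replicate 2, where Rab3a held 44.6%, and 40.6% in LSN replicate 3, where Rab3a held 21.4%. The exons of Rab3a overlap those of Mpv17l2, on the other strand, by 29 bases, and reads there cannot be told apart without strand.

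**Figure D2:**
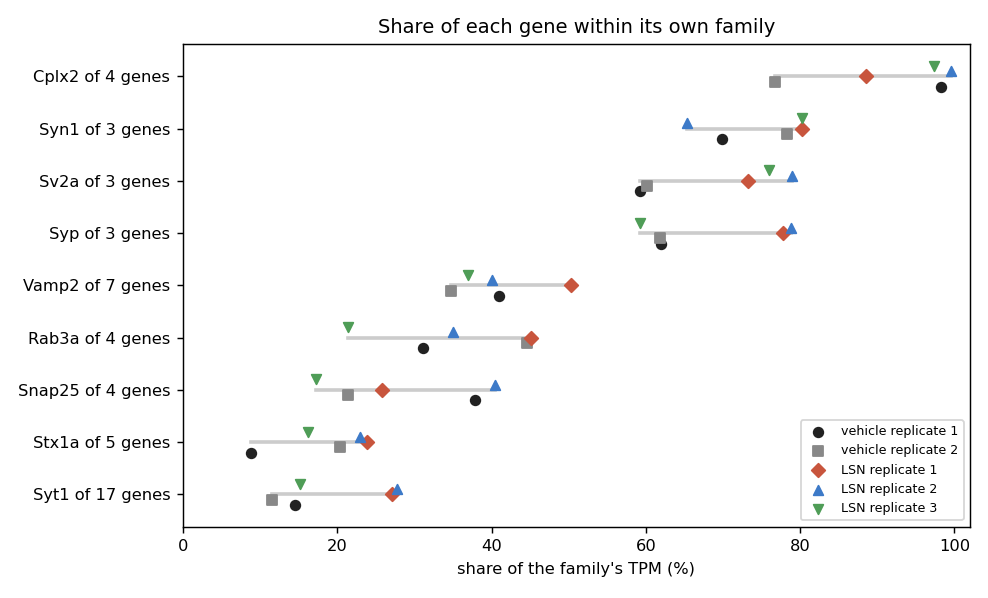
Share of each of the 9 genes in the summed TPM of its own gene family (x axis, percent), with 1 symbol per tumour and a grey line from the lowest to the highest tumour. Cplx2 holds 76.8% to 99.6% of the complexin total, whereas Syt1, Stx1a and Snap25 hold less than 41% in each tumour.

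Syp and Sv2a, which encode vesicle membrane proteins, were higher in all 3 LSN tumours in TMM-scaled CPM, by small margins. Syp was at 92.8 and 84.0 CPM in vehicle replicates 1 and 2 and at 170, 120 and 114 CPM in LSN replicates 1, 2 and 3. LSN replicate 1 stood apart and the other LSN tumours were close together. Its log2 fold change was 0.61 ± 0.27 (SE), and edgeR gave an adjusted p of 0.9996 (0.0656 unadjusted), and 0.40 without LSN replicate 1. Sv2a was at 45.7 and 57.6 CPM with vehicle and at 89.7, 58.0 and 68.0 CPM with LSN, with vehicle replicate 2 and LSN replicate 2 nearly equal. In TPM, Sv2a was lower in LSN replicate 2 (39.3) than in vehicle replicate 2 (43.0), so that its separation depended on the scaling. Its log2 fold change was 0.48 ± 0.30 (SE; adjusted p of 0.9996 by edgeR), and 0.28 without LSN replicate 1. Syp held 61.9% and 62.0% of the TPM of Syp, Sypl and Synpr with vehicle, and 77.8%, 78.8% and 59.3% in LSN replicates 1, 2 and 3. Sv2a held 59.3% and 60.2% of the Sv2 family with vehicle and 73.2% to 78.9% with LSN. An antisense gene, Gm14703, overlaps the exons of Syp by 875 bases and had between 2 and 22 counts per tumour. Reads there cannot be told apart without strand, so these counts do not bound the effect on Syp.

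Syn1, which encodes synapsin I, was at 48.8 and 56.4 CPM in vehicle replicates 1 and 2 and at 92.1, 56.97 and 52.4 CPM in LSN replicates 1, 2 and 3. Only LSN replicate 1 stood clear of the rest. Here the log2 fold change was 0.35 ± 0.34 (SE; adjusted p of 0.9996 by edgeR), and 0.05 without LSN replicate 1. Syn1 held 65.3% to 80.3% of the synapsin TPM, with most of the remainder from Syn2. Syn1 and Syp lie on the X chromosome, where the median log2 fold change of the 575 tested genes was 0.20.

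**Figure D3:**
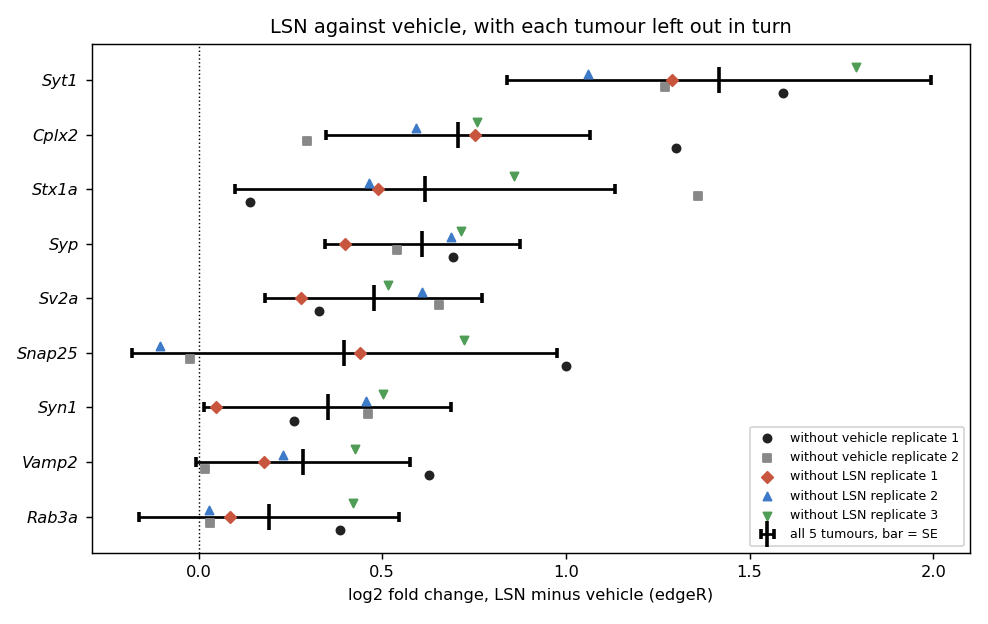
Log2 fold change of LSN over vehicle (x axis, edgeR) for each of the 9 genes; black ticks and bars are the value with all 5 tumours and its SE, and symbols are values with 1 tumour left out. Snap25 falls to -0.11 and -0.02 without LSN replicate 2 or vehicle replicate 2, and the other genes stay above 0.

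The 9 genes followed more than 1 profile over the tumours. In TMM-scaled CPM, LSN replicate 2 was the highest tumour for 5 of them (Syt1, Cplx2, Snap25, Stx1a and Rab3a). LSN replicate 1 was the highest for 4 (Syp, Sv2a, Vamp2 and Syn1). The lowest tumour in CPM was vehicle replicate 2 for 4, vehicle replicate 1 for 3 and LSN replicate 3 for 2. The order depended in part on scaling. In TPM, LSN replicate 1 was the highest tumour for Stx1a and Rab3a, and LSN replicate 3 the lowest for Syn1. Likeness was measured as the root mean square difference of log2(CPM + 1) over the 5 tumours, each gene centred on its own mean. Sv2a and Syn1 were nearest to each other at 0.16, as were Vamp2 and Rab3a at 0.18. Syt1 and Sv2a were the most distant pair, at 0.78. The vesicle genes Syn1 and Sv2a were thus the most alike in profile, and the calcium sensor gene lay far from both.

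Syt1 had the widest range of the 9, 2.10 on the log2 scale. Of 11084 genes with a mean of at least 10 CPM, those nearest to its profile over the 5 tumours were Chml, Ncald, Dner, Rgs8 and Igtp, with root mean square differences of 0.19, 0.20, 0.21, 0.27 and 0.28. Chml encodes a Rab escort protein, Ncald the calcium sensor neurocalcin delta, and Dner a neuronal transmembrane protein. Dner was at 389 and 288 CPM in the vehicle tumours and at 837, 1022 and 247 CPM in the LSN tumours, with the same tumours high and low as for Syt1. Igtp, an interferon-induced GTPase, was at 12.2 and 15.8 CPM with vehicle and at 46.4, 40.6 and 14.7 CPM with LSN. The nearest of the other 8 genes, Snap25, ranked 112 of 11084, and Sv2a ranked 2256.

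The promoters were searched for letters that known regulators of neuronal genes bind. REST, a repressor that keeps neuronal genes silent in other cells, binds the RE1 element, CREB binds the CRE, and basic helix-loop-helix factors bind E-boxes. RefSeq start sites on GRCm38.p6 matched 7 of the 9 genes by symbol, in 9 windows of 300 bases from 250 before to 50 after the start; Snap25 and Vamp2 had no entry. The letters searched, on both strands, were TTCAGCACC and GGACAGC for the left and right arm of RE1, TGACGTCA for the CRE, TGACG for the CRE core, which lies within the CRE, CAGCTG for the E-box and GGGCGG for the GC box. Syn1, Stx1a and Syt1 are shown because Syn1 alone held the left RE1 arm and the CRE, Stx1a held 3 GC boxes with an E-box and a CRE core, and Syt1 had the widest range; capitals mark the matches.
Syn1 promoter, chrX:20920869-20921168, minus strand: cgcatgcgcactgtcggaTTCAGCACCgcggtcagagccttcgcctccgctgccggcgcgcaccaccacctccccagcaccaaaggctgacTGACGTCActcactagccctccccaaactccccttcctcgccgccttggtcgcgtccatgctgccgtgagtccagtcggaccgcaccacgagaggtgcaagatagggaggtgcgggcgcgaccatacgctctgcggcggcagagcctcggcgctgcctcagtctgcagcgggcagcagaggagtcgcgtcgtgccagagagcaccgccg
Stx1a promoter, chr5:135023232-135023531, plus strand: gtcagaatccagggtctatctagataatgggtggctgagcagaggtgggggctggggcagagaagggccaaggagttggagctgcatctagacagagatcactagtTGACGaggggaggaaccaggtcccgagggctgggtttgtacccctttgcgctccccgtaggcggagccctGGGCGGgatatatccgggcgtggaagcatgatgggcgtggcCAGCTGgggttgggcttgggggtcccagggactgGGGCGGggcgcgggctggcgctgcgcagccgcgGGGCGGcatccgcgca
Syt1 promoter, chr10:109010926-109011225, minus strand: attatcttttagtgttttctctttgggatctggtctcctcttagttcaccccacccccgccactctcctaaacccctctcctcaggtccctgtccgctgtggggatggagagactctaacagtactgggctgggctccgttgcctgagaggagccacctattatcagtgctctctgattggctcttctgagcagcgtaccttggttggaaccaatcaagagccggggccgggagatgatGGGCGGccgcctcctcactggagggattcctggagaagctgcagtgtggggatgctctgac

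In Syn1 the left arm of RE1 began at -232 and the CRE at -159, counted from the start site. The left arm was in 0.371% of all 32851 promoter windows and the CRE in 1.79%. The right arm of RE1 matched in 0 of the 9 windows and in 6.56% of all windows. Only exact letters were searched, so an arm with differing bases, in Syn1 or elsewhere, would have been missed. The E-box was in 1 window each of Cplx2, Rab3a, Stx1a, Sv2a and Syt1, 5 of 9 windows against 16.3% of all. In Syt1 it lay in the window of a second start, not shown, at -31, and in Rab3a also in that of a second start, at -185. The GC box was in 5 of 9 windows against 35.7% of all, and the CRE core in 3 of 9 against 20.8%. The RefSeq start of Cplx2 lies upstream of the gene start in the deposited table, so its window is not at that start. These matches describe letters in the windows and were not tested for binding.

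Rest itself was low in all tumours. It stood at 5.92 and 11.5 CPM in vehicle replicates 1 and 2 and at 5.85, 3.22 and 4.61 CPM in LSN replicates 1, 2 and 3, a mean of 2.94 TPM. All LSN tumours were below both vehicle tumours, by a narrow margin for LSN replicate 1. Its log2 fold change was -0.93 ± 0.56 (SE; unadjusted p of 0.154 and adjusted p of 0.9996 by edgeR), -0.37 without vehicle replicate 2 and -1.33 without vehicle replicate 1. Of the 11 genes for REST, its corepressors and Srrm4, a splicing factor that acts on Rest transcripts, 0 passed the adjusted threshold in either direction, and their median log2 fold change was 0.13. Srrm4 was at 62.3 and 18.1 CPM with vehicle and at 44.2, 88.0 and 26.2 CPM with LSN, with overlapping groups.

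The rest of the vesicle pathway was described over 8 lists with 134 genes other than the 9, of which 127 were tested. By edgeR, 0 of the 127 passed the adjusted threshold in either direction, 2 had an unadjusted p under 0.05 upward and 2 downward, and DESeq2 called 0. A log2 fold change above 0 was seen for 75 (59.1%), with a median of 0.09. The LSN tumours all exceeded both vehicle tumours for 12 of the 127 (9.45%, against 8.48% of all tested genes) and all fell under both for 6 (4.72%, against 10.4%). The pathway as a whole therefore lay closer to the median of all tested genes, 0.03, than the 9 genes did, a difference that was not tested.

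Beside the synaptotagmins, whose median of 0.46 was the highest, list medians lay between -0.11 and 0.23. They were 0.15 for 16 SNARE genes, 0.04 for 21 genes of SNARE assembly, priming and disassembly, 0.22 for 23 genes of the Rab3 and Rab27 cycle, and 0.12 for 18 genes of vesicle membrane proteins and synapsins, counts that include the 9 genes. The median was 0.23 for 19 endocytosis genes, 0.10 for 17 active zone and calcium channel genes and -0.11 for 7 vesicular transmitter transporters. By edgeR, 0 genes of these lists had an adjusted p under 0.05.

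Nsf, the ATPase that takes spent SNARE bundles apart, had the smallest p of the pathway. It was at 75.1 and 92.8 CPM in vehicle replicates 1 and 2 and at 185, 145 and 162 CPM in LSN replicates 1, 2 and 3, with no overlap. The fold change of Nsf on the log2 scale was 0.97 ± 0.23 (SE), and edgeR gave an adjusted p of 0.9996 (0.00734 unadjusted), and the adjusted p by DESeq2 was 0.225. Snap47, a SNAP-25 relative, was at 50.9 and 45.8 CPM with vehicle and at 101, 65.0 and 77.1 CPM with LSN, with a log2 fold change of 0.74 ± 0.28 (SE; unadjusted p of 0.0423 and adjusted p of 0.9996 by edgeR). Both genes lie on chromosome 11, like Vamp2. Of the 7 tested pathway genes on chromosome 11 other than the 9, 6 were above 0 with a median of 0.68, and 5 of them (Cltc, Doc2b, Nsf, Snap47 and Syngr2) were above both vehicle tumours in every LSN tumour. On other chromosomes 7 of 120 were, with a median of 0.08 over the 120, where 8.48% of all tested genes were. The median over all 1422 tested genes of chromosome 11 was 0.34, and the share of those genes above both vehicle tumours was not computed. The part of chromosome 11 in these values was not tested.

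Other genes among the 2 with the smallest p of their lists were these, not all with an unadjusted p under 0.05. Syngr2, a synaptophysin relative found in many cells, was at 54.5 and 44.0 CPM with vehicle and at 64.0, 97.1 and 76.0 CPM with LSN, a log2 fold change of 0.68. Cltc, the clathrin heavy chain, had one of 0.59 and Dnm1, the neuronal dynamin that cuts vesicles from the membrane, one of 0.74, from 28.3 and 46.1 to 58.3, 66.5 and 61.9 CPM. The value of Dnm1 was 0.44 without vehicle replicate 1 and 1.14 without vehicle replicate 2. Lower in every LSN tumour were Vamp5, a SNARE of muscle and endothelium, at 5.86 and 8.09 against 2.82, 1.61 and 2.17 CPM, and Sytl2, a RAB27 effector, at 5.32 and 5.58 against 1.99, 0.697 and 0.794 CPM. Their log2 fold changes were -1.66 ± 0.55 (SE) and -2.23 ± 0.69 (SE). The unadjusted p by edgeR was 0.0587 for Syngr2, 0.0659 for Cltc, 0.0534 for Dnm1, 0.0261 for Vamp5 and 0.0204 for Sytl2. All 5 genes had an adjusted p of 0.9996 by edgeR.

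**Figure D4:**
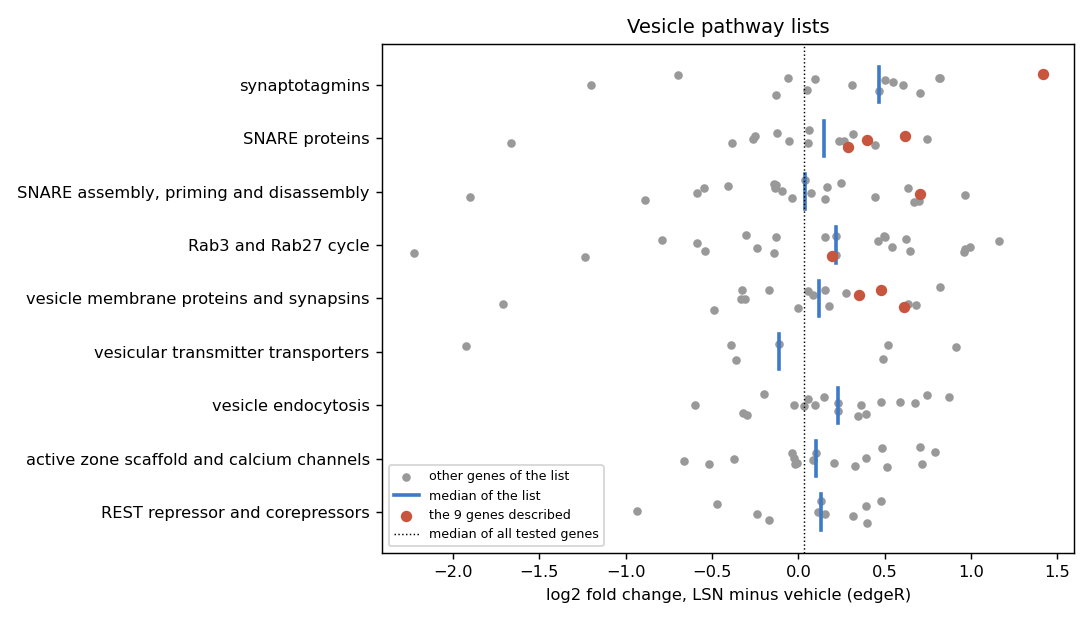
Log2 fold change of LSN over vehicle (x axis, edgeR) for the tested genes of 9 lists (y axis); red points are the 9 genes described, grey points the others, blue bars the list medians and the dotted line the median of all tested genes. The 9 genes lie between 0.19 and 1.42, and list medians lie between -0.11 and 0.46.

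Some partners of the 9 genes separated the tumours in another way than the treatment did. Slc17a6, the vesicular glutamate transporter of neurons, had 142 and 945 counts with vehicle (replicates 1 and 2) and 431, 1 and 0 counts with LSN (replicates 1, 2 and 3). Cplx1, the complexin of fast synapses, was at 7.10 and 63.4 CPM with vehicle and at 56.9, 2.36 and 13.2 CPM with LSN. Vehicle replicate 2 and LSN replicate 1 were the high tumours for both genes. Slc18a1, the vesicular monoamine transporter of endocrine cells, was low in the same tumours, at 2.46 and 12.6 CPM, against 92.2, 92.8 and 162 CPM in vehicle replicate 1 and LSN replicates 2 and 3. Other vesicular transmitter transporters did not all follow this split. Slc17a7, a glutamate transporter, was highest in vehicle replicate 1 (3.55 CPM) and lowest in vehicle replicate 2 (0.558 CPM). Slc18a2 was lower in vehicle replicate 2 (7.1 CPM) than in LSN replicate 2 (11.7 CPM). Slc18a3 was nearly equal in these tumours (8.65 and 8.2 CPM). Slc30a3 was low in vehicle replicate 2 and LSN replicate 1, like Slc18a1 (0.0558 and 0.331 CPM). Cplx1 and Slc30a3 were chosen after their values were seen. None of Slc17a6, Cplx1 and Slc18a1 passed the adjusted threshold in edgeR, and their split was not tested.

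Among markers of other cells, those of normal lung epithelium and most of those of endothelium separated the groups, and the other lists overlapped in their sums. All 12 normal lung epithelium markers had log2 fold changes below 0, 10 of them were below both vehicle tumours in every LSN tumour (against 10.4% of all tested genes), and their summed level was 6796 and 8732 CPM with vehicle and 373 to 1929 CPM with LSN. By DESeq2, Cldn5 of the endothelial and Neurod1 of the neuroendocrine markers passed the adjusted threshold, both lower with LSN. Cldn5 was at 27.3 and 31.0 CPM with vehicle and at 6.63, 3.43 and 2.91 CPM with LSN. Neurod1 was at 37.3 and 11.1 CPM with vehicle and at 0.773, 0.429 and 0 CPM with LSN. Endothelial markers were below 0 for 9 of 10, and the same 9 were below both vehicle tumours in every LSN tumour. The exception, Vwf, was at 439 and 49.5 CPM with vehicle and at 52.4, 540 and 425 CPM with LSN. Sums were 516 and 687 CPM against 181 to 665 CPM with Vwf, and 248 and 466 CPM against 93.9 to 128 CPM without it, a split chosen after the values were seen. Fibroblast and smooth muscle markers were below 0 for 9 of 10, 4 of them below both vehicle tumours, with 755 and 1547 CPM against 438 to 842 CPM. Leukocyte markers were below 0 for 6 of 10, 0 of them below both, with 725 and 2990 CPM against 540 to 1251 CPM. No marker of these 4 lists was at 0 in any tumour. Neuroendocrine markers were above 0 for 13 of 18, with 10420 and 3785 CPM in vehicle replicates 1 and 2 and 8129 to 14770 CPM with LSN, and Neurod1 was at 0 in LSN replicate 3. The part of these cells in the levels of the 9 genes was not tested.

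Neuron markers, 2 of 8 tested above 0, summed to 307 and 722 CPM in vehicle replicates 1 and 2. With LSN they summed to 659, 234 and 246 CPM in replicates 1, 2 and 3. Mapt was at 48.4 and 559 CPM with vehicle and at 474, 13.1 and 90.3 CPM with LSN. Gad1 was high in other tumours, at 142 and 6.1 CPM with vehicle and at 14.8, 153 and 20.3 CPM with LSN. Gad2 was at 0 in vehicle replicate 2 and LSN replicates 2 and 3, and Neurod6 at 0 in vehicle replicate 1 and LSN replicates 2 and 3. Schwann cell and glia markers, 4 of 6 tested above 0, summed to 170 and 225 CPM with vehicle and 176 to 363 CPM with LSN, most of it from Mbp. Sox10, the defining transcription factor of Schwann cells, had 0 counts with vehicle and 2, 4 and 2 counts with LSN, and Cdh19 had 0, 0, 2, 0 and 10. For scale, 3 counts, the limit that a count of 0 allows, were 0.159 to 0.167 CPM.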

How the data were processed

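RNA-seq libraries of 5 tumours were analysed. Per the labels' protocols, library preparation was non-stranded, paired ends were read on a NovaSeq, and the authors mapped reads to mm10 with STAR and tested genes with DESeq2; the version of STAR, the counting program and the handling of reads shared by related genes are not stated in them. As deposited, the authors' values are raw read counts per gene for 54532 genes. The gene lengths in the deposited table equalled the summed exon length of GENCODE M21 for all 9 genes.

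Groups came from the treatment label. Replicate numbers follow the order of deposit and pair nothing. The labels do not tie tumours to animals, and p-values measure only the spread between these samples, which may be technical. LSN was compared with vehicle by edgeR 4.0.16 in R 4.3.3 (robust quasi-likelihood F test, TMM, filterByExpr at 10 counts, total 15, Benjamini-Hochberg adjustment at 0.05 over 17906 genes, 3 residual degrees of freedom). Standard errors were the log2 fold change divided by the square root of F. A permutation test of 2 against 3 tumours cannot go below 0.1. Alternatives were DESeq2 1.42.0, limma-voom (limma 3.58.1), RLE scaling, total counts, 2 other filters, a fit that was not robust, and each tumour left out. The code was checked on simulated data.

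The 9 genes and the lists were chosen with earlier results of these data known. Genes named were the 9, and the 2 with the smallest p and the 4 with the highest mean TPM of each of 9 pathway lists. Up to 3 markers with the highest mean CPM were named per marker list. A fixed set included Rest, Srrm4, Snap23, Vamp3, Vamp8, Stx3, Chga and Neurod1. The 5 genes nearest in profile to the widest-ranging gene were also named. Cplx1, Stx4a, Syn2, Rab3b, Sypl, Synpr, Gad2, Neurod6, Sox10, Cdh19, Cldn5, Uchl1, Slc17a7 and Slc30a3 were named outside these rules, after their values were seen. TPM was computed from counts and gene length. Some items are not reported here.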

Additional observations from a re-analysis of the deposited data

How the results depend on the processing

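The absence of calls held for the 9 genes in edgeR, DESeq2 and limma-voom and in each of the 12 alternatives. Over all genes, 0 were called in every edgeR and limma-voom fit and 100 by DESeq2, with 764 (edgeR), 858 (limma-voom) and 1218 (DESeq2) at an unadjusted p under 0.05. The median log2 fold change of the 9 genes lay between 0.398 and 0.715 with 1 tumour left out and at 0.399 with total counts. The log2 fold change of Snap25 reversed, to -0.0227 without vehicle replicate 2 and to -0.106 without LSN replicate 2, its range over the tumours left out being -0.106 to 1.0; the cause was not tested. Leaving out 1 tumour leaves 1 vehicle or 2 LSN tumours, so that a lone vehicle tumour is assumed to vary like the LSN group. No paired analysis was possible because the labels give tumours of the 2 groups no shared numbers. With 2 against 3 tumours, the number of tumours and not the depth limits the precision, since the 9 genes had 206 to 24842 counts per tumour.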
